A study of Mus musculus with 5 samples.

Results

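Genomic imprinting leaves a gene active on the chromosome inherited from 1 parent and silent on the other, through methylation of CpG sites set in the germ line. Imprinted genes lie in clusters, many are active in neurons, and in mice they are known for effects on growth, feeding and maternal care. The genes described are 8 imprinted protein-coding genes of 32531 genes in the count tables, given as a list of names, with no threshold on their values: Zdbf2, Peg3, Dlk1, Nnat, Peg10, Ndn, Grb10 and Snrpn. All 8 passed the filter on low counts, which left 14136 genes. The reads were counted per gene, so the parental allele of each read was not measured.

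The RNA came from ribosomes carrying an EGFP-tagged ribosomal protein (Rosa26-LSL-EGFP/Rpl10a) switched on by the Rbp4-Cre KL100 driver in adult, untreated mice. Dentate gyrus gave 3 libraries and cerebral cortex gave 2, and both groups carry the same driver and the same tagged allele. The anti-EGFP pulldown enriches RNA of the cells that express Cre, and no unpurified input was analysed here. The labels do not say whether libraries of a tissue came from separate animals, nor the sex of the mice, and p-values therefore reflect only how much these libraries vary, which may be technical. In such bulk RNA, fewer cells of a type and less RNA per cell cannot be told apart.

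Gene counts summed to 22600963 to 36837908 per dentate gyrus library and to 23967356 and 34887421 in the cerebral cortex libraries. Levels below are CPM, counts per 1000000 gene counts after scaling by trimmed mean of M values. The marker lists were chosen with earlier results of these data known, so they describe the libraries and do not test the tissue labels. All 12 granule cell markers rose in dentate gyrus, where 10.5% of all tested genes rose. Their summed level was 5696 to 6149 CPM in dentate gyrus, against 585 and 623 CPM in cerebral cortex. Of 8 layer 5 markers, 6 fell, where 10.8% of all tested genes fell. Their sums were 241.5 to 426 CPM in dentate gyrus against 1102 and 1200 CPM in cerebral cortex. The layer 5 marker Bcl6 went the other way without passing, at 157 to 171 CPM in dentate gyrus against 128 and 129 CPM in cerebral cortex. A pair of libraries stood apart. Dentate gyrus replicate 2 held Dcn, a matrix proteoglycan gene, at 114 CPM, against 1.71 and 10.5 CPM in dentate gyrus replicates 1 and 3, and cerebral cortex replicate 1 held Car8 at 411 CPM, against 1.44 CPM in replicate 2. Results are therefore also given without these libraries where that changes them.

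Promoter windows are shown for the genes that passed the test between tissues, Zdbf2 and Peg3. Those of Nnat and Dlk1, which had the largest fold among dentate gyrus libraries, are shown too. The windows are given for their unequal number of CpG sites. Each runs from 250 bases before to 50 bases after an annotated start, 5′ to 3′ on the gene's strand, from RefSeq on GRCm38.p6, with every CpG in capitals.
Zdbf2, plus strand, chr1:63273019-63273318: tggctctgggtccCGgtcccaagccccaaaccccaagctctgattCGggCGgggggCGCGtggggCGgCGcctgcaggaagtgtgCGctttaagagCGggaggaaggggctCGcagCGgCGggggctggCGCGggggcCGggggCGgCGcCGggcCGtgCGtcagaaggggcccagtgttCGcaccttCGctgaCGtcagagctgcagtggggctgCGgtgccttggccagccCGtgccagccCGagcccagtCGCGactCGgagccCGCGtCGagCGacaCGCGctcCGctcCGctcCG
Peg3, minus strand, chr7:6730370-6730669: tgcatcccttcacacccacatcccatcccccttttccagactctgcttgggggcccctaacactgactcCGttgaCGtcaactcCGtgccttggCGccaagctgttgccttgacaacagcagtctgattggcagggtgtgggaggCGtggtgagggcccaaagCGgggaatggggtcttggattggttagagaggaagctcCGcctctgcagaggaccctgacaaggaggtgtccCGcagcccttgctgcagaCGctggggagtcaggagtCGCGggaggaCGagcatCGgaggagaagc
Nnat, plus strand, chr2:157559828-157560127: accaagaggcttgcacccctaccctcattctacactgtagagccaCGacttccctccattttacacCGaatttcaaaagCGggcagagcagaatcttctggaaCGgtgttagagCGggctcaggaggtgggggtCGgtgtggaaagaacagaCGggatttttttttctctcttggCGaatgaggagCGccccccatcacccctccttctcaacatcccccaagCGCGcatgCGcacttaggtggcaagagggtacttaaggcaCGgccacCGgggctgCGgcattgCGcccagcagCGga
Dlk1, plus strand, chr12:109452573-109452872: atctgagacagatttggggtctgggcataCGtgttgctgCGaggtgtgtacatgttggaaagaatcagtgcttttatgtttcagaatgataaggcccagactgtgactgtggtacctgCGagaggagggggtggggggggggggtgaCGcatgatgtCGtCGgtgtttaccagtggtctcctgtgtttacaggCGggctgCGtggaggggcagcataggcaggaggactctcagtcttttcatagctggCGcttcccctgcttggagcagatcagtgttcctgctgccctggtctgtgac
The Zdbf2 window shown, at the annotated start of the gene, held 38 CpG sites, and 5.0% of the 32851 promoter windows in the table held as many or more. Another Zdbf2 window upstream, not shown, held 15 CpG sites, and 34.6% of windows held as many or more. The Nnat window held 17, the Peg3 window 13 and the Dlk1 window 9, against a median of 7 over all windows. RefSeq gave windows for 7 of the 8 genes, 12 in all. The hexamer TGCCGC, which the imprint-keeping protein ZFP57 recognises when methylated, was searched on both strands and occurred in 4 of these 12 windows (it contains a CpG), among them the Nnat window and the upstream Zdbf2 window, and in 11.6% of all windows. Methylation was not measured here, and a match describes letters only.

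Of the 8 imprinted genes, Zdbf2 and Peg3 were lower in dentate gyrus, and the other 6 did not pass the test. A called gene has a p under 0.05 in the quasi-likelihood test of edgeR after Benjamini-Hochberg adjustment over all genes. Of all tested genes, 21.3% were called, 10.8% as lower and 10.5% as higher in dentate gyrus, so 2 of 8 is close to the background. No member was called higher in dentate gyrus by this edgeR fit, DESeq2 or limma voom, and 1, Peg10, was higher at an unadjusted p under 0.05 and was called in edgeR fits with a replicate block or with no filter on low counts. The median log2 fold change was -0.40 over the 8 genes and 0.02 over all tested genes. The libraries of the tissues did not overlap for 3 of the 8, Zdbf2, Peg3 and Peg10, where 50.1% of all tested genes had no overlap. All dentate gyrus libraries were below both cerebral cortex libraries for 2 of the 8, against 25% of all tested genes.

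**Figure D1:**
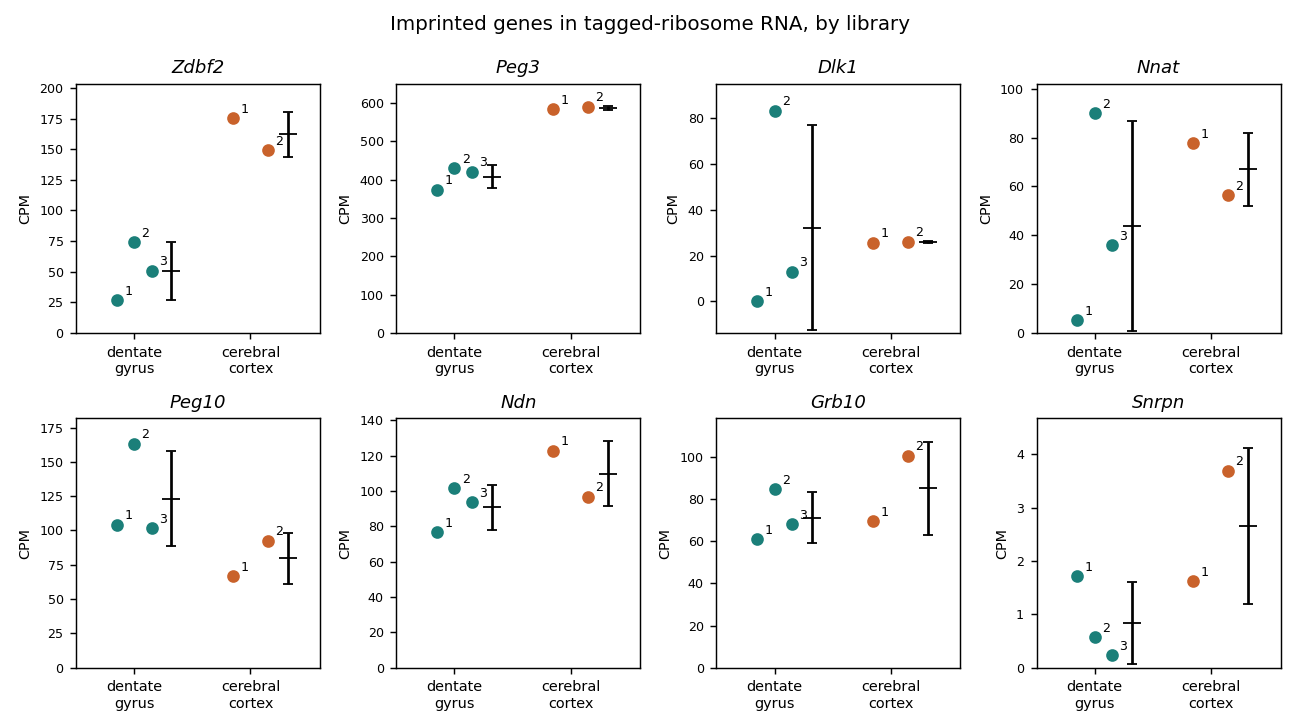
Level of each gene in every library, in CPM on linear axes; points are libraries with their replicate numbers, and black bars are the mean and SD of each tissue. Zdbf2 and Peg3 have all 3 dentate gyrus libraries below both cerebral cortex libraries, while Dlk1 runs from 0.11 to 83.4 CPM within dentate gyrus.

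Zdbf2, a zinc finger gene active on the paternal chromosome whose loss in mice is known to reduce feeding and growth after birth, had the larger of the called differences. It lies on chromosome 1, 63273265 to 63314576, plus strand. Its level was 26.7, 73.95 and 50.9 CPM in dentate gyrus replicates 1, 2 and 3, against 175 and 149 CPM in cerebral cortex replicates 1 and 2. Every dentate gyrus library was below the lower cerebral cortex library. The means were 50.5 ± 23.6 CPM in dentate gyrus (SD, n = 3) and 162 ± 18.3 CPM in cerebral cortex (SD, n = 2), a log2 fold change of -1.69 (SE 0.34) with an adjusted p of 0.00605 by edgeR. Without dentate gyrus replicate 2 the log2 fold change was -2.08, and the call was lost only when the change had to exceed 2-fold, with an adjusted p of 0.114.

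Peg3, a large Krüppel-type zinc finger gene active on the paternal chromosome and known in mice for effects on growth and maternal care, was the most abundant of the 8. It lies on chromosome 7, 6703892 to 6730431, minus strand. Its level was 374, 430.4 and 420.5 CPM in dentate gyrus replicates 1, 2 and 3, against 584 and 590.4 CPM in cerebral cortex replicates 1 and 2. The groups were separate and each was tight. The means were 408 ± 29.9 CPM in dentate gyrus (SD, n = 3) and 587 ± 4.57 CPM in cerebral cortex (SD, n = 2), a ratio of 0.696. The log2 fold change was -0.52 (SE 0.11) with an adjusted p of 0.00894 by edgeR, which became 0.0726 without cerebral cortex replicate 1 and dentate gyrus replicate 2 together.

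Dlk1 encodes a transmembrane protein with EGF repeats related to Notch ligands, and it is active on the paternal chromosome (chromosome 12, 109452823 to 109463336, plus strand). In cerebral cortex its level hardly varied, whereas the dentate gyrus libraries ran from nearly no reads to the highest level of all 5. The counts were 4, 1877 and 332 in dentate gyrus replicates 1, 2 and 3, or 0.11, 83.4 and 13 CPM, against 899 and 635 counts, or 25.6 and 26.1 CPM, in cerebral cortex replicates 1 and 2. The 4 counts of dentate gyrus replicate 1 have an exact Poisson 95% interval of 0.0301 to 0.283 CPM, which covers counting error only. The highest dentate gyrus library was 755-fold above the lowest, and 0.436% of the 10318 genes whose mean count reached 100 had a larger fold among these libraries. The log2 fold change of 0.31 (SE 1.34) had an adjusted p of 0.906 by edgeR, and it was -2.003 without dentate gyrus replicate 2, with an adjusted p of 0.296.

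Nnat encodes neuronatin, a small membrane protein of the endoplasmic reticulum known to act on calcium handling, and it is active on the paternal chromosome (chromosome 2, 157560078 to 157562522, plus strand). Like Dlk1, it differed between libraries of dentate gyrus more than between tissues. Its level was 5.3, 90.1 and 35.9 CPM in dentate gyrus replicates 1, 2 and 3, against 77.7 and 56.5 CPM in cerebral cortex replicates 1 and 2. Dentate gyrus replicate 2 was above both cerebral cortex libraries, and dentate gyrus replicates 1 and 3 were below both. The highest dentate gyrus library was 17.0-fold above the lowest. The log2 fold change was -0.62 (SE 0.77) with an adjusted p of 0.639 by edgeR, and it was -1.73 without dentate gyrus replicate 2, with an adjusted p of 0.0966.

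Peg10, a gene derived from a retrotransposon and needed for the mouse placenta, was higher in every dentate gyrus library than in either cerebral cortex library but did not pass (chromosome 6, 4747306 to 4760517, plus strand). Its level was 104, 163 and 102 CPM in dentate gyrus replicates 1, 2 and 3, against 66.8 and 92.7 CPM in cerebral cortex replicates 1 and 2. The libraries closest to the other tissue, dentate gyrus replicate 3 and cerebral cortex replicate 2, differed little. The log2 fold change was 0.63 (SE 0.25), with an adjusted p of 0.110 by edgeR. It passed with a replicate block (adjusted p 0.0420) and with no filter on low counts (adjusted p 0.0110), both by edgeR. With the block the tissue difference rests on replicates 1 and 2, since cerebral cortex has no replicate 3. The log2 fold change was 0.36 without dentate gyrus replicate 2, and 0.16 without that library and cerebral cortex replicate 1 together.

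Ndn and Grb10 did not pass, and their libraries overlapped between the tissues. Ndn encodes necdin, a protein of the MAGE family abundant in neurons that have left the cell cycle (chromosome 7, 62346569 to 62350262, plus strand). It was at 76.9, 102 and 93.7 CPM in dentate gyrus replicates 1, 2 and 3, against 123 and 96.7 CPM in cerebral cortex replicates 1 and 2, with a log2 fold change of -0.27 (SE 0.19) and an adjusted p of 0.376 by edgeR. Grb10 encodes an adaptor that dampens insulin and IGF1 receptor signalling, and in mice it is active on the maternal chromosome in most tissues and on the paternal one in neurons (chromosome 11, 11930508 to 12038683, minus strand). It was at 60.8, 84.4 and 67.9 CPM in dentate gyrus replicates 1, 2 and 3, against 69.4 and 100.5 CPM in cerebral cortex replicates 1 and 2. Its log2 fold change was -0.26 (SE 0.23), with an adjusted p of 0.491 by edgeR, and it was 0.001 without cerebral cortex replicate 2.

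Snrpn encodes SmN, the neuronal form of a core protein of the splicing machinery, and its transcript unit also carries the Snurf reading frame. RefSeq on GRCm38.p6 gives the genes the same end, with Snurf at 59982495 to 60005199 inside Snrpn at 59982495 to 60450177 on chromosome 7. Reads that fit more than 1 gene were set aside as ambiguous in the tables, and no source used here gives the gene models behind the counting, so the Snrpn row alone is uncertain. Its counts were 62, 13 and 6 in dentate gyrus replicates 1, 2 and 3, against 57 and 90 in cerebral cortex replicates 1 and 2. The tissues overlapped, and the log2 fold change of -1.65 (SE 1.13) had an adjusted p of 0.361 by edgeR. The Snurf row held more reads and was lower in dentate gyrus, at 16.8, 18.3 and 14.2 CPM in replicates 1, 2 and 3, against 31.5 and 38.7 CPM in cerebral cortex replicates 1 and 2. Its log2 fold change was -1.09 (SE 0.29) with an adjusted p of 0.0222 by edgeR. Both rows were also summed, an alternative chosen after the data were seen. The sum was at 17.3 ± 2.49 CPM in dentate gyrus (SD, n = 3) and 37.8 ± 6.57 CPM in cerebral cortex (SD, n = 2). Its log2 fold change was -1.13, with an adjusted p of 0.0189 by edgeR. Most of the sum was Snurf in every library, with 610 of 672 counts in dentate gyrus replicate 1 and 944 of 1034 in cerebral cortex replicate 2. The sum therefore says little about Snrpn alone, and it leaves out the ambiguous reads. The Snurf call was lost with a replicate block (adjusted p 0.0984), without dentate gyrus replicate 3 (0.0600), without cerebral cortex replicate 1 (0.0569), without cerebral cortex replicate 2 (0.151) and without cerebral cortex replicate 1 and dentate gyrus replicate 2 together (0.0849).

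Compared per length, as CPM per kilobase of exon, Peg3 stood first in both tissues, at 30.7 ± 2.25 in dentate gyrus and 44.1 ± 0.343 in cerebral cortex. In dentate gyrus it was followed by Ndn (24.6 ± 3.43), Nnat (23.9 ± 23.5), Peg10 (18.5 ± 5.21), Grb10 (7.82 ± 1.33), Dlk1 (5.69 ± 7.92) and Zdbf2 (3.99 ± 1.87). In cerebral cortex the order after Peg3 was Nnat (36.7 ± 8.2), Ndn (29.7 ± 4.97), Zdbf2 (12.8 ± 1.45), Peg10 (12 ± 2.75), Grb10 (9.34 ± 2.42) and Dlk1 (4.57 ± 0.0522). Neighbours in the dentate gyrus order overlapped in their libraries except Peg3 with Ndn and Peg10 with Grb10. In the cerebral cortex order, Nnat with Ndn, Zdbf2 with Peg10, and Peg10 with Grb10 overlapped. With the longest transcript as the length, 2 genes changed rank in dentate gyrus and 3 in cerebral cortex. Among all tested genes with a length, the dentate gyrus mean of Peg3 lay at the percentile of 90.5 and its cerebral cortex mean at 94.0. Zdbf2 lay at 53.9 in dentate gyrus and 78.3 in cerebral cortex.

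**Figure D2:**
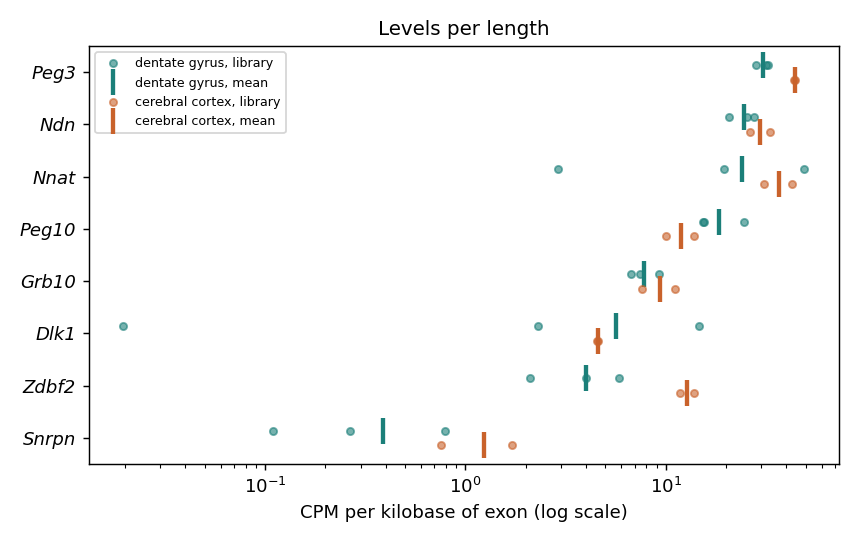
CPM per kilobase of exon on a log axis for the 8 genes, ordered by their dentate gyrus mean; points are libraries and vertical marks are means. Peg3 leads in both tissues, at 30.7 in dentate gyrus and 44.1 in cerebral cortex, and the Snrpn row, uncertain because it overlaps Snurf, is last in both.

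The dentate gyrus libraries were not alike in these genes. Replicate 2 was the highest dentate gyrus library for 7 of the 8, all but Snrpn, where 33.5% of all tested genes had it highest. For 6 of the 8, Zdbf2, Peg3, Dlk1, Nnat, Ndn and Grb10, replicate 2 was highest, replicate 3 next and replicate 1 lowest, an order found for 17.5% of all tested genes. This order was noticed in the data, so it is a description with no test. Among 33 other imprinted protein-coding genes tested, 6 had it, or 18.2%.

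Sums of several marker lists had this order too. The 9 markers of CA pyramidal and subicular neurons summed to 139.5, 362 and 178 CPM in dentate gyrus replicates 1, 2 and 3, against 462 and 454.5 CPM in cerebral cortex replicates 1 and 2, and 5 of the 9 had the same order. Dcn gave 114 CPM of the sum in replicate 2, and Fibcd1, Fn1, Nr4a2 and Nts did not have the order. Tpbg was at 0 counts in dentate gyrus replicate 1, and Nts in dentate gyrus replicates 1 and 3. The 8 layer 5 markers summed to 241.5, 426 and 303 CPM in dentate gyrus replicates 1, 2 and 3, and 4 of the 8 had the order. None of the 12 granule cell markers had it, and they summed to 6149, 5696 and 6034 CPM. The 10 interneuron markers summed to 569.6, 600.4 and 622 CPM and the 8 astrocyte markers to 635, 655 and 791 CPM in these libraries, so neither list was highest in replicate 2. The 8 markers of endothelium and pericytes had the order, at 16.6, 34.5 and 17.9 CPM in dentate gyrus replicates 1, 2 and 3, against 14.7 and 28.8 CPM in cerebral cortex replicates 1 and 2. The 8 choroid plexus markers summed to 8.58, 24.7 and 34.1 CPM in dentate gyrus, against 4.53 and 13.1 CPM in cerebral cortex, and were highest in replicate 3. The 8 meningeal fibroblast markers summed to 6.29, 121 and 16.6 CPM, with Dcn at 114 CPM in replicate 2 and with Col3a1 and Igfbp2 at 0 counts in all dentate gyrus libraries. Markers of oligodendrocytes summed to 161 to 222 CPM in dentate gyrus and 221 and 295 CPM in cerebral cortex, and those of microglia to 0.911 to 5.33 CPM in dentate gyrus and 8.44 and 9.44 CPM in cerebral cortex. The 6 markers of hypothalamic neurons summed to less than 1 CPM in every library. The part of these cells in the levels of Dlk1, Nnat and Zdbf2 was not tested.

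**Figure D3:**
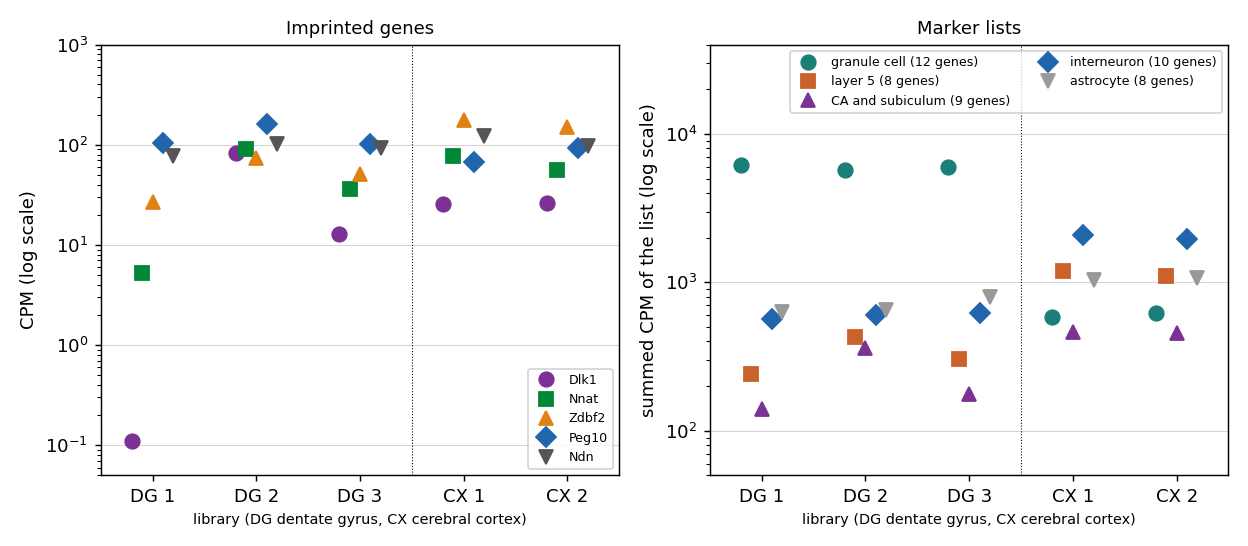
Left, CPM of 5 imprinted genes in each library on a log axis; right, summed CPM of marker lists in the same libraries on a log axis. Dlk1 and the list for CA and subiculum are lowest in dentate gyrus replicate 1, at 0.11 and 139.5 CPM, and highest within dentate gyrus in replicate 2, while the granule cell sum stays between 5696 and 6149 CPM.

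For genes whose log2 CPM spanned more than 2 over the 5 libraries, the 3 genes with the most similar profile were found as the smallest Euclidean distance between log2 CPM values centred on each gene's mean, among 9652 genes. For Dlk1 they were Figf, which encodes a VEGF-family growth factor (distance 1.98), the orphan receptor gene Gpr165 (2.07) and the vesicular glutamate transporter gene Slc17a6 (2.64). Slc17a6 was at 0.386, 19.4 and 8.18 CPM in dentate gyrus replicates 1, 2 and 3, against 39.9 and 28.8 CPM in cerebral cortex replicates 1 and 2. For Nnat they were the glucuronyltransferase gene B3gat2 (0.717), the transporter gene Slc16a14 (0.761) and Shroom3 (0.892), a regulator of the actin cytoskeleton. For Zdbf2 they were Gpr180 (0.205), Myadm (0.329) and the teneurin gene Tenm4 (0.360), and for the Snrpn row Ankrd24 (0.462), the DNA ligase gene Lig1 (0.765) and the potassium channel gene Kcnd1 (0.802). The distances of Dlk1 were the largest, so its neighbours resemble it least.

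The neighbours of each gene in its imprinted cluster were read in the same fit, and differences between neighbours were not tested. Next to Zdbf2, the cell adhesion gene Adam23 was lower in dentate gyrus by more than Zdbf2, at 68.3, 100.4 and 118 CPM in dentate gyrus replicates 1, 2 and 3, against 354 and 344 CPM in cerebral cortex replicates 1 and 2. Its log2 fold change was -1.87 (SE 0.21) with an adjusted p of 0.000195 by edgeR. Next to Grb10, the actin nucleator gene Cobl fell to 51.0, 72.4 and 41.8 CPM in dentate gyrus, against 484 and 391 CPM in cerebral cortex, a log2 fold change of -2.99 (SE 0.22, adjusted p 1.83e-05 by edgeR), while Grb10 itself did not pass. The Grb10 neighbour Ddc was under 1 CPM in every library, and so was Gpr1 beside Zdbf2.

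In the Peg3 cluster, the deubiquitinase gene Usp29, which starts near Peg3 on the opposite strand, was at 69.2, 42.5 and 48.2 CPM in dentate gyrus replicates 1, 2 and 3, against 55.9 and 64.9 CPM in cerebral cortex replicates 1 and 2. It had a log2 fold change of -0.18 and did not pass. The maternally expressed zinc finger gene Zim1 was at 13.3, 11.9 and 5.29 CPM in dentate gyrus, against 3.22 and 3.57 CPM in cerebral cortex, a log2 fold change of 1.58 (SE 0.58) opposite to that of Peg3, with an adjusted p of 0.0825 by edgeR and 0.0240 by DESeq2. In the Peg10 cluster, Sgce, which encodes epsilon-sarcoglycan and starts back to back with Peg10, was at 25.8, 20.5 and 27.5 CPM in dentate gyrus, against 11.2 and 14 CPM in cerebral cortex, and did not pass (log2 fold change 0.97, adjusted p 0.0629 by edgeR, 0.0117 by DESeq2 and 0.0489 by limma voom). Ppp1r9a, a scaffold gene of dendritic spines, was higher in dentate gyrus (log2 fold change 0.36, adjusted p 0.0465 by edgeR), a call kept under 5 of 16 alternatives. Calcr and Asb4 of that cluster were under 1 CPM in every library.

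Across the Dlk1 cluster, the protein-coding neighbours Dio3, a thyroid hormone deiodinase gene, and Rtl1 were low. Dio3 was at 0, 5.29 and 2.0 CPM in dentate gyrus replicates 1, 2 and 3, against 1.57 and 3.73 CPM in cerebral cortex replicates 1 and 2. Dentate gyrus replicate 1 had the lowest Dio3 and Dlk1 values of all 5 libraries. Meg3, the maternally expressed noncoding RNA of this cluster, was abundant in every library, at 417, 364 and 505 CPM in dentate gyrus, against 392 and 486 CPM in cerebral cortex, with a log2 fold change of -0.03 (SE 0.16) and an adjusted p of 0.914 by edgeR. Rian was at 8.91 to 23.3 CPM in dentate gyrus and 20.2 and 37.4 CPM in cerebral cortex, and Mirg was at 8.14 CPM in dentate gyrus replicate 3 and between 0.246 and 1.03 CPM in the other libraries.

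In the Snrpn and Ndn region, which corresponds to the human Prader-Willi and Angelman region, Ube3a, a ubiquitin ligase gene active on the maternal chromosome in neurons, was at 38.8, 27.6 and 41.6 CPM in dentate gyrus replicates 1, 2 and 3, against 29.5 and 29.6 CPM in cerebral cortex replicates 1 and 2. It did not pass (log2 fold change 0.29, adjusted p 0.526 by edgeR). The noncoding Snhg14, whose transcript runs antisense to Ube3a, was at 29.3 to 36.0 CPM in dentate gyrus and 40.6 and 29.8 CPM in cerebral cortex and did not pass. The MAGE gene Magel2, Mkrn3 and Peg12 were under 1 CPM in every library. Atp10a was at 0.274 to 0.966 CPM in dentate gyrus and 0.0855 and 4.59 CPM in cerebral cortex, and the noncoding Ipw at 1.95 to 10.1 CPM in dentate gyrus and 1.25 and 6.19 CPM in cerebral cortex, and neither passed. Blcap, whose intron holds Nnat on the other strand, was at 20.3, 28.3 and 40.6 CPM in dentate gyrus, against 44.4 and 49.3 CPM in cerebral cortex, and did not pass (log2 fold change -0.66, adjusted p 0.168 by edgeR).

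**Figure D4:**
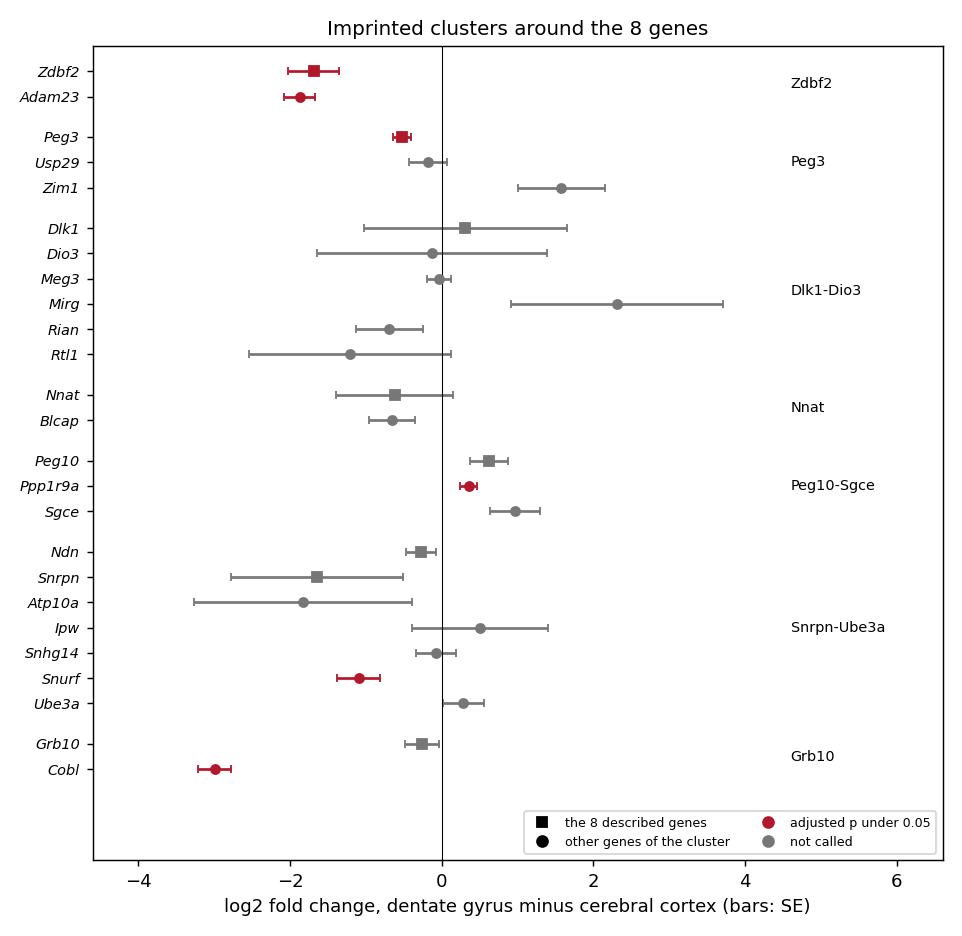
Log2 fold change, dentate gyrus minus cerebral cortex, with its SE, for the tested genes of the 7 imprinted clusters that hold the 8 genes; squares are the 8 genes, circles their neighbours, and red marks an adjusted p under 0.05 by edgeR. Zdbf2 and Adam23 lie to the left together at -1.69 and -1.87, whereas Cobl at -2.99 and Grb10 at -0.26 differ.

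A wider list of 48 other imprinted protein-coding genes gave 33 tested, of which 8 fell and 2 rose in dentate gyrus (10.8% and 10.5% of all tested genes were called in each direction). The list median was a log2 fold change of -0.37, against 0.02 over all tested genes. Outside the clusters above, Mest, a hydrolase-fold gene, was at 30.7, 46.5 and 54.7 CPM in dentate gyrus replicates 1, 2 and 3, against 123 and 124 CPM in cerebral cortex replicates 1 and 2. Inpp5f, a phosphoinositide phosphatase gene, was at 76.4 to 104 CPM in dentate gyrus and 192 and 254 CPM in cerebral cortex, and Nap1l5, a histone chaperone family gene, was at 67.4 to 126 CPM in dentate gyrus and 203 and 243 CPM in cerebral cortex. Gnas, the stimulatory G protein alpha gene, fell with a log2 fold change of -0.61 and Impact, a regulator of translation, with -1.05, with adjusted p of 0.000806 and 0.00429 by edgeR. Rasgrf1, a Ras exchange factor gene, rose, at 1425 to 1636 CPM in dentate gyrus against 942 and 833 CPM in cerebral cortex.

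Genes were grouped by the allele listed as active in mice, which was not measured here and may not hold in these cells. With the 8 genes included, 8 of 24 tested genes listed as paternally expressed fell and 1 rose in dentate gyrus. Of 15 listed as maternally expressed, 1 fell and 1 rose. Over all tested genes 10.8% fell and 10.5% rose. Of 2 genes whose active allele depends on the tissue, 1 fell. The median log2 fold changes of the paternally and maternally expressed genes were -0.40 and -0.37, and the difference between these groups was not tested. Of 7 noncoding RNAs of imprinted clusters tested, Kcnq1ot1 rose, at 57.3, 71.6 and 87.2 CPM in dentate gyrus replicates 1, 2 and 3, against 15 and 10.7 CPM in cerebral cortex replicates 1 and 2. Peg13 fell, at 399 to 442 CPM in dentate gyrus against 599 and 576 CPM in cerebral cortex, and its adjusted p of 0.00974 by edgeR was 0.0504 with a replicate block and 0.0675 without cerebral cortex replicate 1, and 0.137 when dentate gyrus replicate 2 was left out as well.

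Relatives and partners of the 8 genes were read from lists of known members. Of 15 tested genes that, like Peg10, derive from the Gag protein of retrotransposons, 2 rose and 3 fell in dentate gyrus, where 10.5% of all tested genes rose and 10.8% fell. Zcchc5, also named Rtl3, was at 22.1, 9.59 and 24.6 CPM in dentate gyrus and at 0 counts in cerebral cortex, and Pnmal2 was at 157 to 202 CPM in dentate gyrus against 73.0 and 61.1 CPM in cerebral cortex. Arc, the activity-regulated gene whose protein forms capsid-like shells, fell to 20.8, 24.2 and 11.4 CPM in dentate gyrus, against 213 and 144 CPM in cerebral cortex. Cxx1c and Cxx1b fell too. These are near-identical copies, and reads that fit several places were set aside in the counts, so their values are uncertain. The Cxx1b adjusted p of 0.0411 by edgeR was 0.116 with a replicate block and 0.0769 to 0.171 without dentate gyrus replicates 1 or 3 or cerebral cortex replicates 1 or 2. With both cerebral cortex replicate 1 and dentate gyrus replicate 2 left out, the adjusted p by edgeR was 0.0858 for Cxx1c and 0.0876 for Cxx1b.

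Among genes that set or keep imprints, Ctcf and Trim28 rose in dentate gyrus. The insulator protein gene Ctcf was at 163, 181 and 147 CPM in dentate gyrus against 67.9 and 64.4 CPM in cerebral cortex (log2 fold change 1.30, adjusted p 0.000507 by edgeR). Trim28, the corepressor that ZFP57 recruits, had an adjusted p of 0.0368 by edgeR, which was between 0.0532 and 0.203 without each of the 5 libraries in turn. Zfp57 itself was at 0.979 to 3.17 CPM in dentate gyrus and 2.37 and 1.68 CPM in cerebral cortex.

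Among genes of the insulin and IGF pathway that Grb10 acts on, Insr and Igf1r did not pass, and of 8 tested genes the related adaptor Grb14 alone rose (10.5% of all tested genes), at 20.1 to 35.0 CPM in dentate gyrus against 5.7 and 9.35 CPM in cerebral cortex. Its adjusted p of 0.0131 by edgeR was 0.0897 without cerebral cortex replicate 1 and 0.0531 without dentate gyrus replicate 3. Of 9 tested genes of the MAGE family and necdin partners (10.8% of all tested genes fell), Magee1 and E2f1, a cell cycle transcription factor that necdin binds, fell. E2f1 was at 0.0783 CPM or less in each dentate gyrus library and at 6.62 and 5.13 CPM in cerebral cortex, and Maged1 was at 251 to 290.2 CPM in dentate gyrus and 342 and 317 CPM in cerebral cortex without passing. A list of 8 tested genes held Smn1 besides core splicing genes related to Snrpn. Its median log2 fold change was 0.58, against 0.02 over all tested genes. Of this list, Snrpd3 alone rose (adjusted p 0.0297 by edgeR), where 10.5% of all tested genes rose. Snrpb, the nearest relative, was at 16.0 to 19.7 CPM in dentate gyrus and 9.61 and 11.5 CPM in cerebral cortex and did not pass. The Snrpd3 adjusted p was 0.0772 with a replicate block and 0.0745 to 0.148 without dentate gyrus replicates 2 or 3 or cerebral cortex replicates 1 or 2, and the Magee1 adjusted p of 0.0232 by edgeR was 0.163 and 0.0565 without cerebral cortex replicates 1 and 2. With both cerebral cortex replicate 1 and dentate gyrus replicate 2 left out, the adjusted p by edgeR was 0.0550 for E2f1, 0.0949 for Grb14, 0.233 for Magee1 and 0.266 for Snrpd3.

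Another list of 8 tested genes held Fgf18 besides genes of the Notch pathway and the Dlk1 family. From this list, Jag1 and Notch2 rose in dentate gyrus, where 10.5% of all tested genes rose. Jag1, a Notch ligand gene, was at 5.55, 12.2 and 6.46 CPM in dentate gyrus against 0.285 and 0.041 CPM in cerebral cortex, and Notch2 was at 18.5 to 28.4 CPM in dentate gyrus against 1.63 and 6.36 CPM in cerebral cortex. The Notch2 adjusted p of 0.0145 by edgeR was 0.124 without cerebral cortex replicate 1 and dentate gyrus replicate 2 together. Dlk2, the paralogue of Dlk1, was at 1.16 to 2.62 CPM in dentate gyrus and 5.45 and 3.41 CPM in cerebral cortex and did not pass. Atp2a2, the calcium pump gene that neuronatin is thought to act on, was at 705, 782 and 956 CPM in dentate gyrus against 1232 and 1127 CPM in cerebral cortex. Its adjusted p of 0.0171 by edgeR was 0.111 without cerebral cortex replicate 1 and 0.210 when dentate gyrus replicate 2 was left out as well.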

How the data were processed

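The authors deposited 1 table of raw, unnormalised counts for each library, with genes as symbols, made with STAR 2.0.0e and HTSeq on mm10, per the submitters' processing notes. In the sources used here the annotation, the strand setting and the HTSeq version are not given, so reads of overlapping or antisense genes cannot be told apart. Reads that fit several places or several genes were set aside in the deposited counts, 25.0% to 31.8% and 1.81% to 1.87% of all entries, and reads without a gene were 10.6% to 14.8%. These classes and the row of unknown reads stayed out of library sizes.

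Gene counts were tested with edgeR 4.0.16 in R 4.3.3, with scaling by trimmed mean of M values, filterByExpr and the quasi-likelihood F test on tissue, and Benjamini-Hochberg adjustment over 14136 genes. Fold changes are dentate gyrus minus cerebral cortex. A total of 3 counts corresponds to 0.0814 to 0.133 CPM per library, and intervals cover counting error only. Positions and exon lengths are from GENCODE on GRCm38, the build called mm10. Simulated counts with known changes were used to test the procedure. Named genes were the 8 genes, their cluster neighbours, up to 4 genes per other list with the smallest adjusted p and any other called imprinted gene, plus the 3 most similar profiles for genes spanning more than 2 in log2 CPM with a prior count of 2. Genes named as partners beside these were chosen after their values were seen. The lists are not reported in full here. The members and lists were chosen with earlier results of these data known. Alternatives used limma 3.58.1 and DESeq2 1.42.0, other scalings and filters, a replicate block, robust dispersion, a 2-fold threshold and left-out libraries.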

Additional observations from a re-analysis of the deposited data

How the results depend on the processing

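Of the 8 genes, 2 were called, and the count was 0 when the change had to exceed 2-fold, 1 without cerebral cortex replicate 1 and dentate gyrus replicate 2 together, 3 with no filter on low counts or with a replicate block, and 2 under all other alternatives, leaving out each library included. Over all genes, the 3009 calls became 842 above 2-fold and 1578 without both libraries, and ran from 1886 to 2775 when each library was left out. The lone cerebral cortex library left in such a fit is assumed to vary like the dentate gyrus libraries. The 10 calls among other imprinted genes became 2 above 2-fold, the 5 among Gag-derived genes 3 in that setting and 3 without both libraries, and those among genes that keep imprints 0 above 2-fold, all by edgeR. The Dlk1 log2 fold change turned negative with a replicate block (-2.13), limma voom (-3.04), without dentate gyrus replicate 2 (-2.003) and without both libraries (-1.99), and Grb10 reached 0.001 without cerebral cortex replicate 2. Leaving out each library in turn gave -2.003 to 0.875 for Dlk1 and -0.495 to 0.001 for Grb10. The cause was not tested. Per length, 2 genes changed rank in dentate gyrus and 3 in cerebral cortex with the longest transcript.

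The labels' replicate numbers do not say that libraries share an animal. The deviations of libraries with the same number from their tissue mean were uncorrelated (r of -0.004 and -0.016 across genes). The deviations of the cerebral cortex libraries mirror each other, and these r values do not settle whether libraries share an animal. With the replicate block, Peg3, Zdbf2 and Peg10 were called, with adjusted p of 0.0293, 0.00788 and 0.0420 by edgeR. Dentate gyrus replicate 3 has no cerebral cortex library of its number. In every fit with the block, the tissue difference therefore rests on replicates 1 and 2. Depth limits the Snrpn row, at 6 to 90 counts, and Dlk1 in dentate gyrus replicate 1, at 4 counts.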
